A study of Homo sapiens with 2 samples.

Results

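Peaks of RNA recovered with GATA2 were examined in 3 duplicated blocks on the short arm of chromosome 16, which carry the NPIP genes, the gene SMG1 and the partial SMG1 copies called SMG1P. A peak was a member when its midpoint lay in the first block (chr16:14700000-18950000), the second block (chr16:21300000-22800000) or the third block (chr16:28300000-30800000), all on hg19. The blocks were chosen by the positions and number of the peaks themselves. They held 89 of the 145 peaks of chromosome 16 and of the 2692 peaks in the whole list. Both libraries of the series, 1 HA immunoprecipitate and 1 input, came from K562 cells, a human chronic myelogenous leukaemia line, carrying a GATA2 transgene. Both had received 1 µg/mL doxycycline for 5 hours and 100 µM 4-thiouridine, a uridine analogue that crosslinks to bound protein under long-wave light, for 24 hours, and were irradiated at 365 nm with 0.3 J/cm2. The values are the peak positions and scores of the immunoprecipitate, from a modified enhanced CLIP protocol. Input values and cells without the transgene were not analysed here, and the promoter of the transgene is not given in the sources used here. There was 1 library, so no value has a replicate check and no test between conditions could be made. How many reads lie behind a peak is unknown.

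GATA2 binds DNA through zinc fingers and regulates genes in haematopoietic stem and progenitor cells. SMG1 is a kinase of the PI3-kinase-related family that phosphorylates UPF1 in nonsense-mediated decay, the pathway that removes mRNAs with premature stop codons. The NPIP genes, named for a nuclear pore complex interacting protein, form a primate family that spread over chromosome 16 by segmental duplication, the copying of long stretches of genomic sequence. Copies of this kind can be so alike that a short read has several equally good positions. How such reads were placed is not given in the sources used here, so a peak at one copy cannot be taken as RNA of that copy.

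The RefSeq gene table, which is of GRCh38, listed 31 NPIP and SMG1 family genes on chromosome 16, among them all 9 genes considered here. NPIPA1 belongs to the A branch of the family, and NPIPB3, NPIPB4 and NPIPB5 to the B branch. The A branch had 9 genes in the table when the pseudogene NPIPP1, whose branch is not given there, was counted with it. The B branch had 14, including the pseudogenes NPIPB10P and NPIPB14P. SMG1 is protein-coding, and SMG1P1, SMG1P2, SMG1P3 and SMG1P5 are annotated there as transcribed pseudogenes. An NPIPB gene and an SMG1P copy stood next to each other, with at most 1 gene between them, in 6 places. NPIPB came first along the chromosome in 5 of these pairs, namely NPIPB3 with SMG1P3, NPIPB4 with SMG1P4, NPIPB11 with SMG1P6, NPIPB12 with SMG1P2 and NPIPB13 with SMG1P5. The order was reversed in the pair of SMG1P1 and NPIPB5. The table is not of the build of the peaks, so no peak was assigned to a gene.

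Promoter windows show how alike some of the copies are. Each window is RefSeq sequence on GRCh38.p14, from 250 bases before to 50 bases after a gene's start, read 5′ to 3′ on the gene's strand. The table held windows for 4 of the 9 genes, NPIPA1, NPIPB3, NPIPB4 and SMG1. The others are NPIPB5, SMG1P1, SMG1P2, SMG1P3 and SMG1P5. The windows of NPIPA1 (chr16:14937193-14937492, plus strand) and of its relative NPIPA5 (chr16:15378245-15378544, minus strand) are printed because 299 of their 300 bases were identical. Capitals mark the base that differs.
NPIPA1: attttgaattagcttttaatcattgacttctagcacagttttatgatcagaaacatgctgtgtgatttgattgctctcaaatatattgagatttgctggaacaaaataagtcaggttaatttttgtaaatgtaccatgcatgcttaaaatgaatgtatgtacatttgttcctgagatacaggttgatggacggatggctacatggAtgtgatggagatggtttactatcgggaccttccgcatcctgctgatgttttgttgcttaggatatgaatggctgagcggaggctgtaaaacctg
NPIPA5: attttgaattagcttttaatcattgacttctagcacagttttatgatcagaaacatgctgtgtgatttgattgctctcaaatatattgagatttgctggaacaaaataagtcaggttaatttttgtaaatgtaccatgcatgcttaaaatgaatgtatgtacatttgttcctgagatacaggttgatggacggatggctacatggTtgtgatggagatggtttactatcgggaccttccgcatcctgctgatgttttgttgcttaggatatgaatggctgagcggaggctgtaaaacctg
The windows of NPIPB3 (chr16:21425329-21425628, minus strand) and NPIPB4 (chr16:21857707-21858006, minus strand) start 98 bases apart within shared sequence. Capitals mark the unbroken run of 202 bases that both contain.
NPIPB3: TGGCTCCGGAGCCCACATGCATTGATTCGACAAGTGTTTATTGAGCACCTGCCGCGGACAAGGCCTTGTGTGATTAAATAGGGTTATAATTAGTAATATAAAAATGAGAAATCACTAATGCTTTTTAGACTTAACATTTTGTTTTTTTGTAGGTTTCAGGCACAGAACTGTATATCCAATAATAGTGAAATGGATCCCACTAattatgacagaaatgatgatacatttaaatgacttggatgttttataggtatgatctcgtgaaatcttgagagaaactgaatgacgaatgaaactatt
NPIPB4: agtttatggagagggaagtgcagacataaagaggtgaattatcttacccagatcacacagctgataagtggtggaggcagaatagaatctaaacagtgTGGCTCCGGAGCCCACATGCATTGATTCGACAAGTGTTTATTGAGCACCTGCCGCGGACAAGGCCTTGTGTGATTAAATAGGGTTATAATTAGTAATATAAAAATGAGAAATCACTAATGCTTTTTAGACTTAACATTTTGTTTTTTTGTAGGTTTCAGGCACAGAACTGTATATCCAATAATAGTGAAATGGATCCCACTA
In the NPIPA1 window, 215 of the 251 words of 50 bases (85.7%) also occurred at another genomic place among the 35116 promoter windows of the table, on either strand. The share was 84.1% for NPIPB3 and 80.9% for NPIPB4, against 2.11% over all windows. These were the highest shares of the family. Over its 15 windows on chromosome 16 the share was 45.4%, and it was 0% for NPIPB6, NPIPB12 and 1 window of NPIPB2. The SMG1 window had 13 such words (5.18%), so most of that window was not shared with another promoter window of the table. The table held no window for SMG1P1, SMG1P2, SMG1P3 or SMG1P5, so likeness of SMG1 to these copies could not be seen here. A length of 50 bases was chosen for illustration, since the length of the reads is unknown here.

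The letters GATA, searched on both strands, occurred 3 times in the windows of NPIPA1, NPIPA5 and NPIPB4, 2 times in that of NPIPB3 and 1 time in that of SMG1. The windows of NPIPA6, NPIPA8, NPIPA9, NPIPB6 and 1 window of NPIPB2 held none. GATA was in 66.7% of the 15 family windows on chromosome 16 and in 49.7% of all promoter windows. The longer word GATAA, which contains GATA, was 2 times in the NPIPB4 window and 2 times in 1 window of NPIPB8. It was in 13.3% of the family windows and in 22.7% of all windows. AGATAA, which contains both, was 1 time in each of these 2 windows, in 13.3% of the family windows and in 10.3% of all windows. No peak was placed relative to these windows, and the words are a description of the sequence only.

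The blocks made up 9.35% of the span of chromosome 16, taken from its first to its last peak, and held 61.4% of its peaks. The second block was the densest, with 32 peaks at 21.3 per Mb (95% Poisson interval 14.6 to 30.1). The third held 36 peaks at 14.4 per Mb (10.1 to 19.9), and the first 21 peaks at 4.94 per Mb (3.06 to 7.55). The rest of chromosome 16 held 56 peaks at 0.700 per Mb (0.529 to 0.909), and the other chromosomes together had 0.902 per Mb. The blocks were thus 30.5-fold, 20.6-fold and 7.06-fold denser than the rest of the chromosome. The span of the rest includes the stretch from 34325488 to 47455999, which held no peak and was not taken out. The intervals cover counting error only and treat peaks as independent, which neighbouring copies are not. The blocks were chosen for holding many peaks, so these densities are a description. With peaks within 100 kb joined into 1 locus, the first block was 4.13-fold, the second 5.20-fold and the third 7.80-fold denser than the rest. The blocks then held 9, 4 and 10 loci. The 95% intervals were 1.765 to 8.629, 1.353 to 14.36 and 3.485 to 15.84, which overlap, so these values do not order the blocks.

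**Figure D1:**
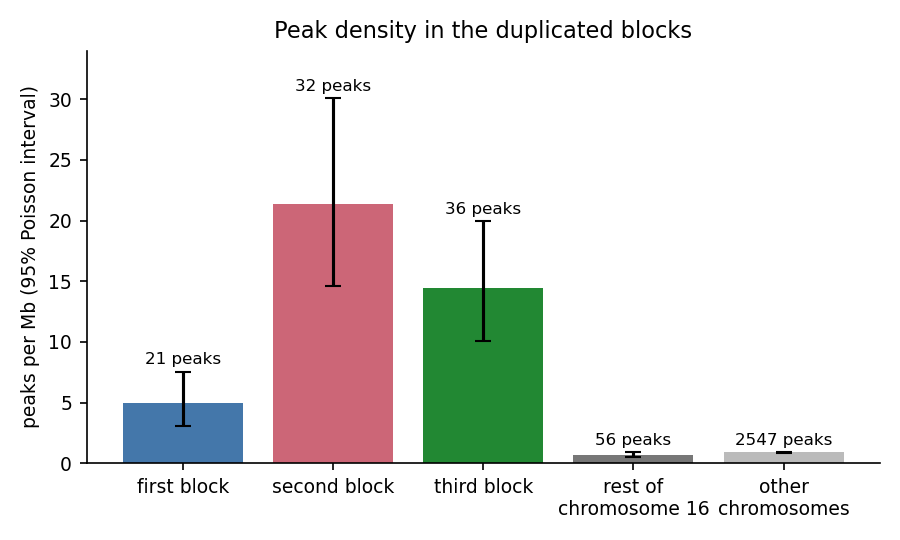
Peaks per Mb in each block, in the rest of chromosome 16 and on the other chromosomes together, with bars for the density, lines for the 95% Poisson interval and the number of peaks above each bar. The second block reaches 21.3 peaks per Mb, against 0.700 in the rest of chromosome 16.

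The limits of the blocks fell in stretches without peaks. The last peak before the first block started at 14294215 (score 52.65), and the first inside it at 14809934 (score 78.4). Its last peak started at 18907846 (score 62.33), and the next one outside at 19532856 (score 67.16). The second block opened with a 6539-bp peak at 21413307 that scored 132.51, after an outside peak at 19715965 with 51.03. It closed with a peak at 22538359 (score 65.02), and the next outside was at 24550918 (score 74.28). The third block ran from a peak at 28390452 (score 50.61) to one at 30773630 (score 79.09). Its outside neighbours started at 27560377 and 31105317, with scores of 56.97 and 66.68.

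Within the blocks, most peaks lay in tight groups. With neighbours joined when their midpoints were within 50 kb, 67 of the 89 peaks fell into 8 groups of at least 4 peaks (75.3%), against 13.4% of all peaks and 5 of the 56 in the rest of chromosome 16. The first block had 1 such group with 11 of its 21 peaks, from 18809699 to 18908284. The second block had 3, with 12, 9 and 10 peaks, which took in 31 of its 32 peaks. They spanned 82.6 kb from 21413307, 40.9 kb from 21886852 and 119 kb from 22420300. The third block had 4, with 5, 4, 4 and 12 peaks, which took in 25 of its 36 peaks. The group of 12 spanned 74.7 kb from 30242544. Midpoints of neighbouring peaks were within 10000 bp for 65 of the 89 members (73.0%), against 19.5% of all peaks and 2 of the 56 in the rest of chromosome 16. The 5 grouped peaks of the rest formed 1 group, from 70254019 to 70333508, and these 2 peaks belonged to it. In the gene order of GRCh38, NPIPB2 stands before NPIPA1, and NPIPB14P, SMG1P7 and NPIPB15 stand after SMG1P5. Whether these genes lie in the rest of chromosome 16 on hg19 was not tested, so it cannot be called free of the family. Midpoints within 1000 bp were found for 2 members (2.25%), against 0.446% of all peaks. Since crowding is what marked out the blocks, the counts of groups and neighbours are descriptions and not separate results.

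Some neighbouring peaks nearly touched. An edge-to-edge gap under 500 bp was found for 14 of the 89 peaks (15.7%), against 3.12% of all peaks, and 10 of the 14 lay in the second block. Small gaps restate the crowding by which the blocks were chosen. The smallest gap, 40 bp, lay between peaks beginning at 21468638 and 21470514, which scored 79.96 and 87.87. The settings of the peak caller that decide whether such neighbours are joined are in no source used here. In the first block the smallest gap was 1557 bp.

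**Figure D2:**
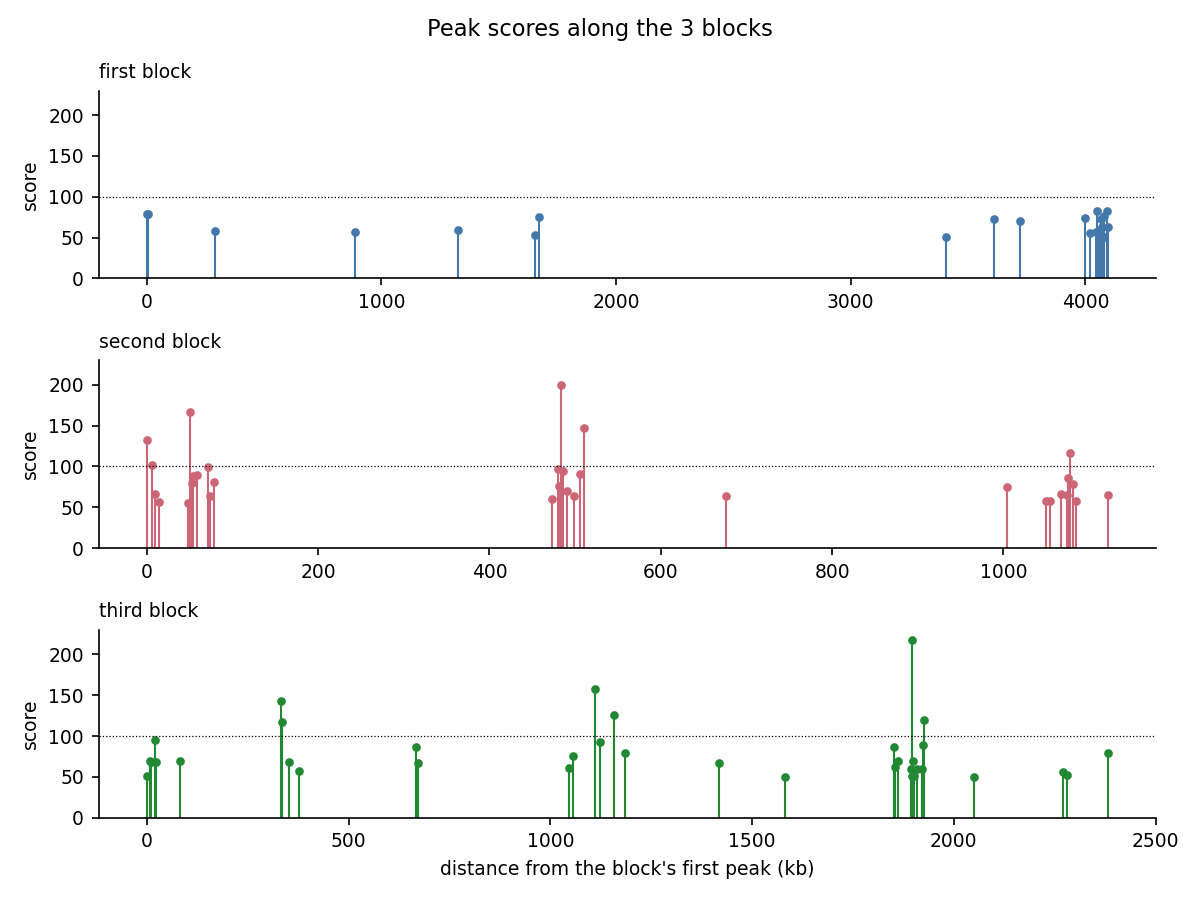
Score of each peak against its distance in kb from the first peak of its block, 1 panel per block, with a dotted line at a score of 100. Peaks stand in tight groups, and the 21 peaks of the first block stay below the line.

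The second block had a longer median peak than the first. The median length was 1219.5 bp in the second block (quartiles 1042.75 and 1855.75 bp), 1003.5 bp in the third (628 and 1881.5 bp) and 599 bp in the first (439 and 990 bp). The 95% order-statistic intervals of the medians were 1086 to 1836 bp, 810 to 1592 bp and 439 to 990 bp. Those of the first and second block did not overlap. The intervals treat peaks of 1 library as independent, which neighbouring copies are not, so this is a description. The rest of chromosome 16 had a median of 1031 bp (interval 794 to 1529 bp) and the other chromosomes 840 bp. A length of at least 1000 bp was reached by 27 of 32 peaks in the second block, 18 of 36 in the third and 5 of 21 in the first, against 38.8% of all peaks. A length of 2000 bp or more was reached by 6 of 32, 8 of 36 and 4 of 21 in the same order, against 14% of all peaks. Peaks covered 3.61% of the second block, 1.88% of the third and 0.548% of the first, against 0.108% of the rest of the chromosome.

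The longest member was the 6539-bp peak at the start of the second block. It was followed in that block by peaks of 5918 bp at 21886852, with a score of 60.71, and 2536 bp at 22500382, with 57.67. The longest of the first block were 4931 bp at 18212643, 3451 bp at 16460920 and 2874 bp at 18868731, which scored only 51.25, 53.27 and 58.31. The longest of the third block were 4113 bp at 29513164, 2623 bp at 30253066 and 2471 bp at 28400998, with scores of 93.24, 69.33 and 68.63. Apart from the 6539-bp peak, each of them scored below 100.

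The score is the authors' own value, with no stated scale, and was used only within this list. The blocks did not stand out by score in the way they did by density. The median was 77.5 in the second block (95% interval 64.6 to 90.5), 69.0 in the third (60.6 to 79.4) and 62.8 in the first (57.3 to 75.2). The rest of chromosome 16 had 63.2 (60.3 to 71.3) and the other chromosomes 65.7, so each block's interval overlapped that of the rest of the chromosome. A score above 100 was reached by 12 of the 89 members (13.5%), against 16% of all peaks. It was reached by 6 of 32 in the second block and 6 of 36 in the third. None of the 21 in the first block reached it. For these the exact binomial interval allows a share of up to 16.1%, while a limit set at 3 of 21 peaks is 14.29%. These limits lie on either side of the 16% of all peaks. Both treat peaks as independent, which neighbouring copies are not. Whether the first block lies below the list therefore cannot be decided here. The highest score in the first block was 82.51. Scores above the median of the list were found for 54 of the 89 members (60.7%, exact binomial interval 49.8% to 70.9%), against 50% of all peaks by definition.

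**Figure D3:**
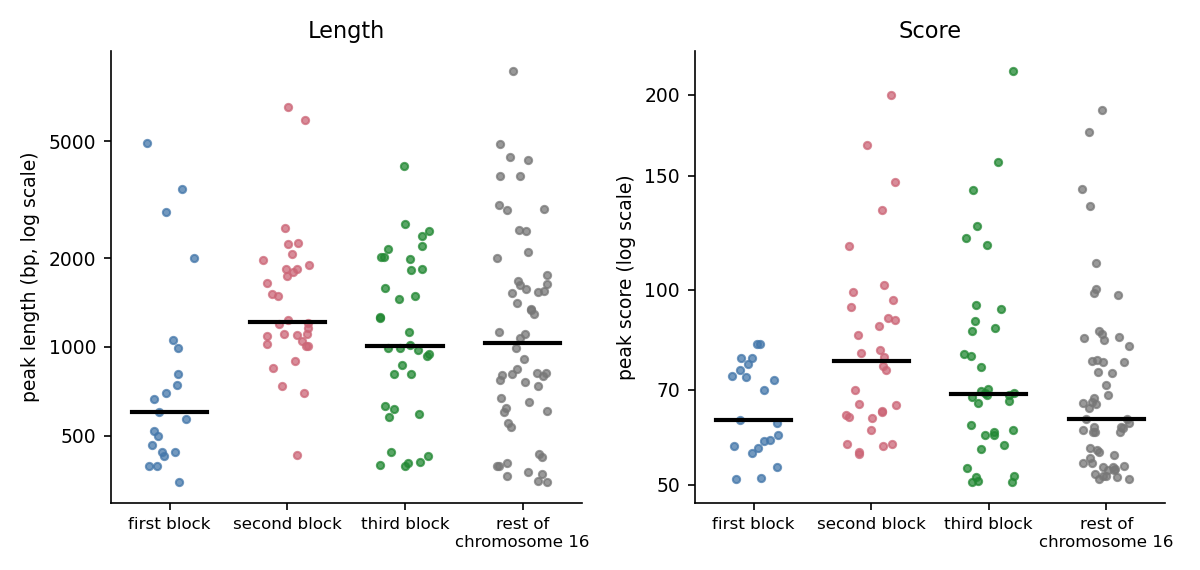
Length in bp and score of every peak in the 3 blocks and in the rest of chromosome 16, on log axes, with a point per peak spread sideways at random and a black line at the median. The first block has the shortest median length, 599 bp, and no score above 82.51, and the score ranges of the other groups overlap.

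The highest score among the members was 217.38, at 30288373 to 30289859 in the third block, which ranked 46 of 2692. The next in that block were 157.36 at 29502593, 142.52 at 28722787, 125.31 at 29548332 and 120.06 at 30316842. These 5 lay in 3 of its 4 groups, and the peak at 30316842 was only 396 bp long. In the second block the highest was 199.9, at 21898680 to 21900915, which ranked 69. It was followed by 167.01 at 21466439, 146.48 at 21925909, 132.51 at 21413307 and 116.96 at 22493178. Each of the 3 groups of the second block thus held at least 1 of its 5 highest scores. In the first block the 5 highest were 82.51 at 18858537, 82.31 at 18900397, 78.55 at 14813681, 78.4 at 14809934 and 76.85 at 18890553. The first 2 ranked 743 and 744 of 2692.

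Peak spacings recurred between the groups. A run was 3 successive peaks, and it recurred when both midpoint spacings, each under 100 kb, were found again within 1% in a run that shared no peak with it. On chromosome 16 there was 1 pair of such runs, with 6 peaks, all in the blocks. The first run, in the second block, had spacings of 12524 and 7170 bp between peaks starting at 22470146, 22482652 and 22490016. The other, in the third block, had 7185 and 12519.5 bp between peaks starting at 30291508, 30299296 and 30311756, which is the same pattern in reverse order. The first run scored 57.74, 66.58 and 64.63, and its counterparts, in matching order, 59.59, 59.7 and 51.4. All 6 scores lay between 51.4 and 66.58. On all 24 chromosomes 18 peaks (0.669%) were in such runs, and the remaining 12 were on chromosome 1. The count in the blocks fell from 6 to 0 when spacings were taken between starts, and to 0 among the 1346 higher-scoring peaks.

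Runs are broken by any extra peak, so shifts of whole segments were also compared. A chain was a set of at least 4 peaks within 100 kb of an anchor peak whose midpoints, moved by 1 common distance with or without inversion, each fell within 150 bp of another peak. Chromosome 16 held 4 chains with 23 peaks, all of them in the blocks, and chromosome 1 held 7. At this tolerance the other chromosomes had none, while at 250 bp chromosome 15 also had 1. These counts depend on the minimum of 4 peaks. With at least 3 peaks at 150 bp, 6 chromosomes had chains, with 32 on chromosome 16 and 59 on chromosome 1. With at least 5, chromosome 16 had 1 and chromosome 1 had 6. Of all peaks, 1.71% were in chains of at least 4 at 150 bp. Blocks with many peaks offer more chances for a match, and how many chains such crowding alone would give was not tested. The count of chained peaks in the blocks was 15 at a tolerance of 100 bp, 46 at 250 bp, 8 with peaks within 100 bp merged and 0 among the 1346 higher-scoring peaks of the list. The lowest score among those was 65.91. Each of the 4 chains had matched peaks below it and kept fewer than 4 matches, so their loss was fixed by that cutoff.

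The longest chain joined the first and the third group of the second block, in inverted order. It matched 5 peaks over 68.1 kb, and their offsets differed by at most 143 bp. The peaks starting at 21422031, 21466439, 21468638, 21470514 and 21490129 scored 101.5, 167.01, 79.96, 87.87 and 63.45. Their counterparts started at 22538359, 22493178, 22491071, 22490016 and 22470146 and scored 65.02, 116.96, 85.24, 64.63 and 57.74. The peak with the highest score was the same in both, and the lengths in matching order were 1160, 1840, 1836, 1024 and 1109 bp against 1204, 1972, 1647, 847 and 1199 bp. The 2 segments held 10 and 8 peaks between the outermost matches, so 5 and 3 of them had no counterpart.

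A further chain linked the first group of the second block with the second one in the same direction, with 4 peaks over 26.1 kb and offsets that differed by 259.5 bp. Within it, the peak at 21490129 to 21491237 was 1109 bp long with a score of 63.45, and its counterpart at 21915251 to 21916360 was 1110 bp long with a score of 63.5. Equal lengths were not the rule, since another matched pair measured 1903 and 5918 bp. The remaining chains tied the second block to the last group of the third block, 8.82 and 7.84 Mb away. The first of these ran in the same direction and matched 4 peaks over 26.1 kb with offsets that differed by 136 bp. The second was inverted and matched 4 successive peaks on each side over 21.2 kb, with offsets that differed by 117.5 bp. It contained the recurring runs described above.

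Both inverted chains involved the group of peaks at the end of the second block, and the chains without it ran in the same direction. These chains are not separate observations. The peaks at 21468638, 21470514 and 21490129 were matched both in the longest chain and in the same-direction chain to the third block. The inverted chain to the third block pairs their counterparts with each other, and adds only the pair at 22482652 and 30299296. In the gene order of GRCh38 the pair of SMG1P1 and NPIPB5 was likewise the one with reversed order, and it is the last of the 3 NPIPB and SMG1P pairs between SMG1 and NPIPB6. Whether that group of peaks lies at SMG1P1 and NPIPB5 on hg19 was not tested.

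The 4 segments were then laid on 1 scale, with the peak at 21490129 and its counterparts at 21915251, 22470146 and 30311756 as the anchor and the segment at 22470146 inverted. From 72 kb before to 8 kb after the anchor they held 11, 8, 9 and 12 peaks, of which 8, 4, 6 and 6 shared a place with a peak of another segment, where neighbouring midpoints within 250 bp count as 1 place. The anchor was taken from the chains, so these counts describe the alignment and add no support to it. The anchor peaks themselves were low and even, with scores of 63.45, 63.5, 57.74 and 59.59. A second place was filled in all 4 segments, at -19.7 to -19.5 kb, with scores of 87.87, 96.32, 64.63 and 51.4.

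The highest scores of 3 of the 4 segments fell into 1 place on this scale. At -23.4 to -23.1 kb from the anchor lay the peaks with scores of 167.01, 116.96 and 217.38, which were the highest of the segments anchored at 21490129, 22470146 and 30311756. The first pair had been matched in the longest chain. The peak with 217.38 missed the 150-bp tolerance of the chains and shares the place only under the wider 250 bp. It lay at -23.104 kb and was joined through the peak with 167.01 at -23.324 kb. The peak with 116.96 lay at -23.418 kb, further than 250 bp from it. In the segment anchored at 21915251 a 5918-bp peak with a score of 60.71 ended near this place, and the highest score, 199.9, lay at -16.01 kb. There the segment anchored at 21490129 had a peak with a score of 89.6, and the others had none. A place at -12.5 kb was filled only in the segments anchored at 22470146 and 30311756, with scores of 66.58 and 59.7.

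**Figure D4:**
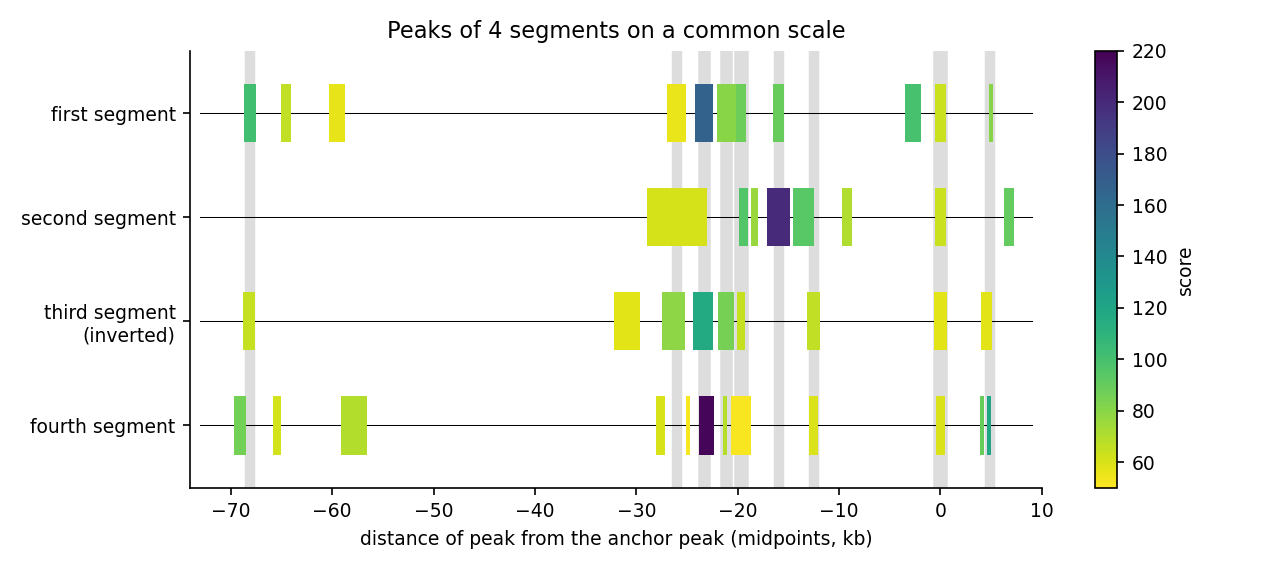
Peaks of the 4 segments, drawn to scale as boxes coloured by score, against the distance of their midpoints in kb from the anchor peak, with the third segment inverted and grey bands at places filled in at least 2 segments. From top to bottom the segments are those anchored at 21490129, 21915251, 22470146 and 30311756. The darkest boxes stand at -23.4 to -23.1 kb, except in the segment anchored at 21915251, where the darkest stands at -16.01 kb.

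The first block took no part in any chain or run. Its group of 11 peaks from 18809699 had a median score of 62.8 and a median length of 695 bp. The corresponding medians were 84.2 and 1323 bp, 90.5 and 1110 bp, and 65.8 and 1441 bp in the groups of the second block, and 65.5 and 869 bp in the last group of the third. The other groups of the third block were also in no chain or run. Their medians were 68.69 and 1994 bp, 92.75 and 1003 bp, and 109.3 and 1347 bp. Peaks alike in both length (within 1%) and score (within 2%) made up 3 of 3916 pairs within the blocks (0.0766%), against 1 of 4984 pairs of a member and a peak of the rest of chromosome 16 (0.0201%) and 93 of 226683 pairs of a member and a peak elsewhere (0.0410%). With counts of 3 and 1, these shares cannot be ordered. One of the 3 pairs was the match at 21490129 and 21915251. The others joined peaks at 14809934 and 29576427 (394 and 395 bp, scores 78.4 and 79.44) and at 18530300 and 28473414 (990 and 993 bp, scores 70.06 and 69.76).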

How the data were processed

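The deposited file of the immunoprecipitate lists chromosome, start, end, name and score for each peak, without strand. Per the submitters' processing notes, cutadapt, UMI-tools 1.0.0, Bowtie2, SAMtools, bedtools and hg19 were used, with no role given. The peak names start with MACS. The caller's version, threshold, control and handling of reads with several positions are not stated in the sources used here. The deposited positions are in bp and are written here counted from 1, and the score is the authors' value with no stated scale.

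Members were found by midpoint. The members, gene lists and comparisons were chosen with earlier results of these data known. Densities used the block lengths and, for the rest of the chromosome, its span from first to last peak without the blocks. No significance test was run, since peaks of 1 library are not replicates. Intervals are 95% and cover counting error only. Named peaks are the 5 highest-scoring and 3 longest of each block and those in repeated spacings. Gene names and promoter sequences come from RefSeq tables of GRCh38.p14, and no coordinate was converted between builds. The search for chains and runs was tested on 20 simulated lists of 145 peaks with a planted copied segment of 5 peaks, and recovered the chain in 20. The planted peaks were displaced by less than the 150-bp tolerance, and the other peaks were spread at random over the chromosome. This checks that the search runs as written, and cannot show how it behaves in crowded blocks. The chains, the common scale, the 50-base words and the pairs alike in length and score were added after the peaks were seen. Alternatives were the higher-scoring peaks, merged peaks, membership by overlap, other denominators, other comparisons and other tolerances. Scripts ran in Python 3.11.15 with scipy 1.17.1, pandas 2.3.3, numpy 2.4.6 and matplotlib 3.10.9.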

Additional observations from a re-analysis of the deposited data

How the results depend on the processing

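Of 67 alternative values, 55 stayed within the 95% interval of the reported value or, for counts, within 1.5 times of it, among them every median length. Membership by any overlap changed no value, since the limits of the blocks fell in stretches without peaks. Merging peaks within 100 bp left 2685 of the 2692 peaks, so densities and medians could hardly move. The total of 55 is therefore no measure of robustness. With the 1346 higher-scoring peaks, the median score rose by construction to 76.0 in the first block and 82.7 in the rest of chromosome 16, where 0 peaks then had a neighbour within 10000 bp, and repeated runs and chained peaks in the blocks fell to 0. The reported runs and chains lost peaks scoring below 65.91, the lowest score in that list, so their loss was fixed by the cutoff. With all other chromosomes as comparison, 17.9% of its peaks had such a neighbour. With peaks within 100 kb merged, the first block was 4.13-fold, the second 5.20-fold and the third 7.80-fold denser than the rest, since merging leaves few loci in a crowded block. The intervals of these values overlap, so they do not order the blocks. Repeated runs fell from 6 peaks to 0 with spacings between starts. The 2 runs are in reversed order, so a start in 1 run corresponds to an end in the other. Spacings between starts therefore also depend on peak length, which was 847 bp at 22490016 against 2015 bp at 30291508. This alternative thus cannot check a reversed pattern of midpoints. Chained peaks numbered 23, but 15 at a tolerance of 100 bp, 46 at 250 bp and 8 with peaks within 100 bp merged. The tolerances, window, minimum number of peaks and merging for chains were chosen after seeing the data. The values are limited by 1 library of unknown depth and by the unknown placement of reads with several positions. No paired analysis was possible because immunoprecipitate and input have 1 library each.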
